A study of Mus musculus with 8 samples.

Results

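The opioid system of mouse skin was examined through 7 genes, 4 encoding opioid receptors (Oprd1, Oprm1, Oprk1 and Oprl1) and 3 encoding opioid peptide precursors (Penk, Pomc and Pdyn). They were taken by gene symbol from the 56748 genes of the deposited tables, and each symbol matched 1 row. Oprd1 was picked because its values were higher in the libraries of NPY mice, so its difference between genotypes is given as a description without a test. The other 6 belong to the same system. RNA came from whole skin of 8 male mice aged 35 weeks that received no treatment. The NPY-tet group held 3 mice with the genotype NPY tet/tet of strain B6;129S4-Npytm2Rpa/J and, per the series title, models NPY overexpression. The wild-type group held 5 siblings with the genotype NPY +/+. The strain name denotes a mixed B6 and 129S4 background, and each library is 1 mouse.

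Opioid receptors are G protein-coupled receptors that inhibit adenylyl cyclase and quiet neurons through Gi/o proteins. Enkephalins, cut from the Penk precursor, act mainly on the delta receptor (Oprd1), beta-endorphin from Pomc mainly on the mu receptor (Oprm1), and dynorphins from Pdyn on the kappa receptor (Oprk1). The Oprl1 receptor binds nociceptin instead, whose precursor gene is Pnoc. In skin, opioid peptides and receptors have been described in keratinocytes, sensory nerve endings and immune cells, and Pomc is also the source of melanocortins, which act on pigment cells and sebaceous glands.

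The precursors differ in how many opioid peptides 1 transcript can give. In the longest open reading frames of GENCODE M21 transcripts, the opioid core, the codons of the pentapeptides Met-enkephalin or Leu-enkephalin, occurs 7 times in Penk, 3 times in Pdyn and 1 time in Pomc. Of the 7 cores of Penk, 6 are Met-enkephalin and 1 is Leu-enkephalin. The cores of Penk, by far the most abundant precursor in this skin, and that of Pomc are shown 5′ to 3′ in order along the coding strand, with the core codons in capitals and the flanking pairs of codons in lower case.
Penk core 1: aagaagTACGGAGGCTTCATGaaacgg
Penk core 2: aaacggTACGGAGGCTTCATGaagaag
Penk core 3: aagaggTATGGCGGCTTCATGaagaag
Penk core 4: aagaggTATGGGGGCTTCATGagaagc
Penk core 5: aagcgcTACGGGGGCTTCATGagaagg
Penk core 6 (Leu-enkephalin): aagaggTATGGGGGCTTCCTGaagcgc
Penk core 7: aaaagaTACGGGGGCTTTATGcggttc
Pomc core 1: aagcgtTACGGTGGCTTCATGacctcc
Each core follows a pair of codons for basic residues, where proprotein convertases cut. Cores 4 and 7 of Penk and the core of Pomc are not followed by such a pair, and in these the peptide runs on, in Pomc into beta-endorphin.

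Oprd1 is a gene of 3 exons with 1116 coding bases in an annotated transcript of 4021 bases, the length also given in the deposited tables. It lies on the minus strand of chromosome 4 at 131838037 to 131871797 in mm39. Promoter sequences from RefSeq on the build GRCm38.p6 matched 5 of the 7 members (Oprd1, Oprl1, Oprm1, Pdyn and Pomc). That of Oprd1, chr4:132144437-132144736 on the minus strand, runs from 250 bases before to 50 bases after the annotated start and is printed because Oprd1 was the receptor with most reads, with an E-box in capitals.
Oprd1 promoter: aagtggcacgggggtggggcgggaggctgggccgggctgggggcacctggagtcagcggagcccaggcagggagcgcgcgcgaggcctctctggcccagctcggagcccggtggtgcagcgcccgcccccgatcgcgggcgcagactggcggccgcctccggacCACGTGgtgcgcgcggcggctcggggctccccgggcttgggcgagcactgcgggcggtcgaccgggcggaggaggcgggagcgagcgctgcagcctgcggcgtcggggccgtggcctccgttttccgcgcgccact
The window is 79.3% G or C, against a median of 52.7% over the 32851 promoter windows of that table. Searched on both strands, the E-box CACGTG occurs 1 time, with its first base 86 bases before the start, and 7.15% of all promoter windows hold it. The GC box GGGCGG occurs 4 times and is held by 35.7% of windows. The cyclic AMP response element TGACGTCA, the AP-1 site TGANTCA and TATAAA have no match in this window and are held by 1.79%, 7.81% and 13.6% of windows. These motifs do not overlap one another here, and a match is a description of letters only.

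The libraries held 31370433 to 47495565 counts. Npy, the targeted gene, stood at 0.237 ± 0.148 CPM (counts scaled to library size with TMM factors; mean ± SD) in the wild type and 308 ± 11.6 CPM in the NPY-tet mice. NPY-tet replicate 1 stood apart in markers of dermal fibroblasts (2175 CPM, against 7791 to 19909 CPM in the other libraries) and of neutrophils (20.4 against 4.87 to 6.91 CPM). Ribosomal RNA genes took 6.44% to 8.07% of counts in 5 libraries (wild-type replicates 1, 2, 3 and 5, NPY-tet replicate 1) and 0.0388% to 0.0754% in the other 3, so this split is unbalanced between the genotypes. The tissue label was borne out by keratinocyte markers (Krt5, Krt14, Krt1, Krt10 and Trp63), which summed to 8236 to 17916 CPM, with none at 0 in any library. Skeletal muscle markers were higher still, at 25188 to 63085 CPM in the wild type and 27026 to 39834 CPM in the NPY-tet mice, above the keratinocyte sum in every library. Hair shaft markers varied most, with a sum over 7 genes of 1.70 to 766 CPM in the wild type and 48.0 to 594 CPM in the NPY-tet mice, and all 7 had higher fitted values in NPY-tet skin. Markers of sensory neurons summed to 2.66 to 5.23 CPM over all libraries, with Scn10a, Mrgprd, Prph and Tac1 at 0 in at least 1 library. Markers of Schwann cells, the glia of skin nerves, summed to 272 to 304 CPM in NPY-tet and 307 to 388 CPM in the wild-type mice, without overlap. This list was 1 of 13 looked at, and the highest NPY-tet and lowest wild-type sums lie close together. Among single tested genes, 1.98% had every NPY-tet library below every wild-type library. The Schwann cell sums were not tested. In whole skin, fewer cells of a type and less RNA per cell cannot be told apart.

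Per length, Penk was the most abundant member by far, and the delta receptor gene was the receptor with most reads in NPY-tet skin. On the deposited FPKM scale (counts scaled to gene length and library size), mean levels in the wild-type mice ran from Penk (37.9 ± 3.40) through Pomc (0.191 ± 0.185), Oprd1 (0.0776 ± 0.0236) and Oprl1 (0.0299 ± 0.0402) to Oprk1 (0.00251 ± 0.00369), with Oprm1 and Pdyn at 0 (SD, n = 5). In this order Penk stood apart from Pomc in every library. Pomc was above Oprd1 in 3 of 5 libraries and Oprd1 above Oprl1 in 4 of 5, so these neighbours did not separate beyond their spread. In NPY-tet mice the order was Penk (28.7 ± 5.41), Oprd1 (0.426 ± 0.202), Pomc (0.0736 ± 0.0274) and Oprl1 (0.00253 ± 0.00439), followed by Oprm1 (0.00118 ± 0.00205) and by Oprk1 and Pdyn at 0 (SD, n = 3). Here the ranges of Penk, Oprd1, Pomc and Oprl1 did not overlap one another. Those of Pomc and Oprl1 rest on at most 5 and 1 counts per library, so their order lies at the limit of detection. The place of Oprd1 contains the difference for which it was picked. The ratio of the mean FPKM of Penk to that of Oprd1 was 488 in the wild type and 67.5 in NPY-tet skin.

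**Figure D1:**
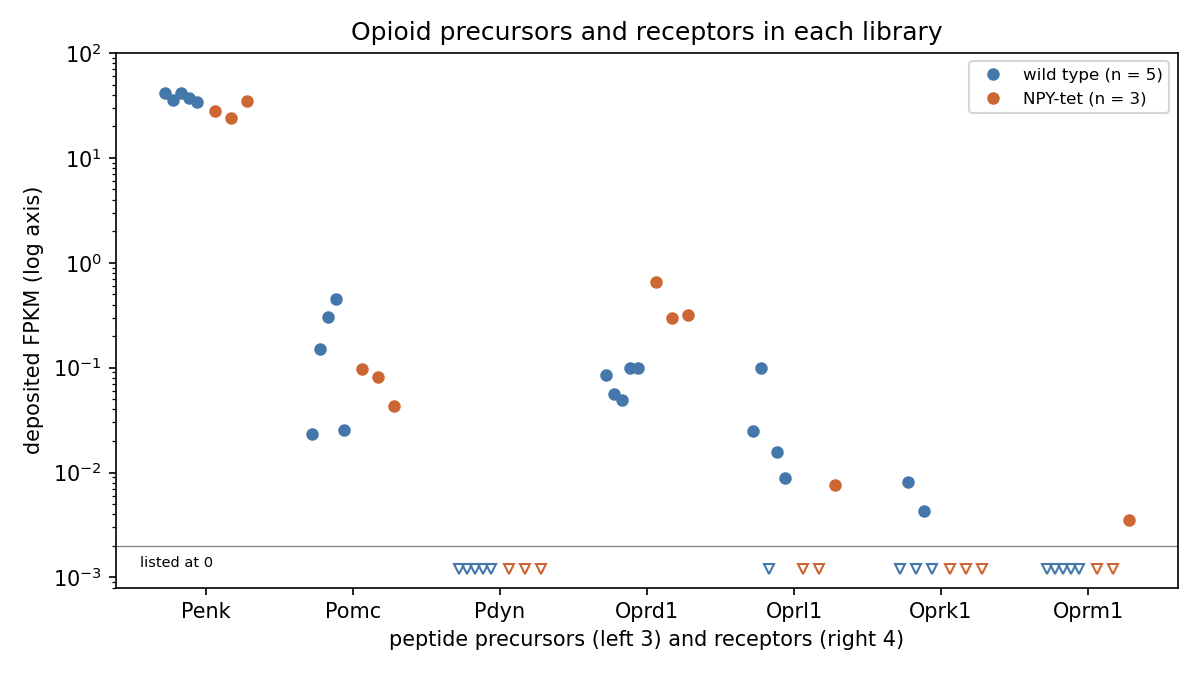
Deposited FPKM (log axis) of the 3 precursors and 4 receptors, 1 point per library, wild type in blue and NPY-tet in orange, with open triangles for values listed at 0. Penk lies between 23.9 and 41.8 in every library, Oprd1 between 0.0494 and 0.658, and Pdyn is at 0 throughout.

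Oprd1 encodes the delta opioid receptor, the main target of enkephalins. Wild-type replicates 1 to 5 gave 11, 9, 6, 20 and 12 counts, and the NPY-tet replicates, in order, 104, 45 and 45. As CPM these were 0.349, 0.228, 0.201, 0.400 and 0.401 in the wild type and 2.68, 1.22 and 1.30 in the NPY-tet mice. Every NPY-tet library lay above every wild-type library, the lowest NPY-tet value being 3.04 times the highest wild-type value. Of the 18495 genes that passed the filter on low counts, 1.81% had every NPY-tet library above every wild-type library, and since Oprd1 was picked for this difference nothing is read from that. The means were 0.316 ± 0.0953 CPM (SD, n = 5) and 1.73 ± 0.821 CPM (SD, n = 3), a ratio of 5.48 and a fitted log2 fold change of 2.44.

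NPY-tet replicate 1 held 2.13 times as much Oprd1 as the mean of the other NPY-tet mice. Its 95% counting interval, 2.19 to 3.25 CPM, did not meet theirs, 0.890 to 1.63 and 0.946 to 1.74 CPM, whereas the intervals of the 5 wild-type libraries all overlapped. Intervals are exact Poisson intervals and cover counting error only. Within the libraries rich in ribosomal RNA the ratio was 9.09 (1 NPY-tet and 4 wild-type mice) and within those poor in it 3.15 (2 NPY-tet mice and 1 wild-type mouse). Without NPY-tet replicate 1 the log2 fold change was 1.98. On the log2(FPKM + 1) scale it was 0.39, since the pseudocount is above the level of the gene.

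**Figure D2:**
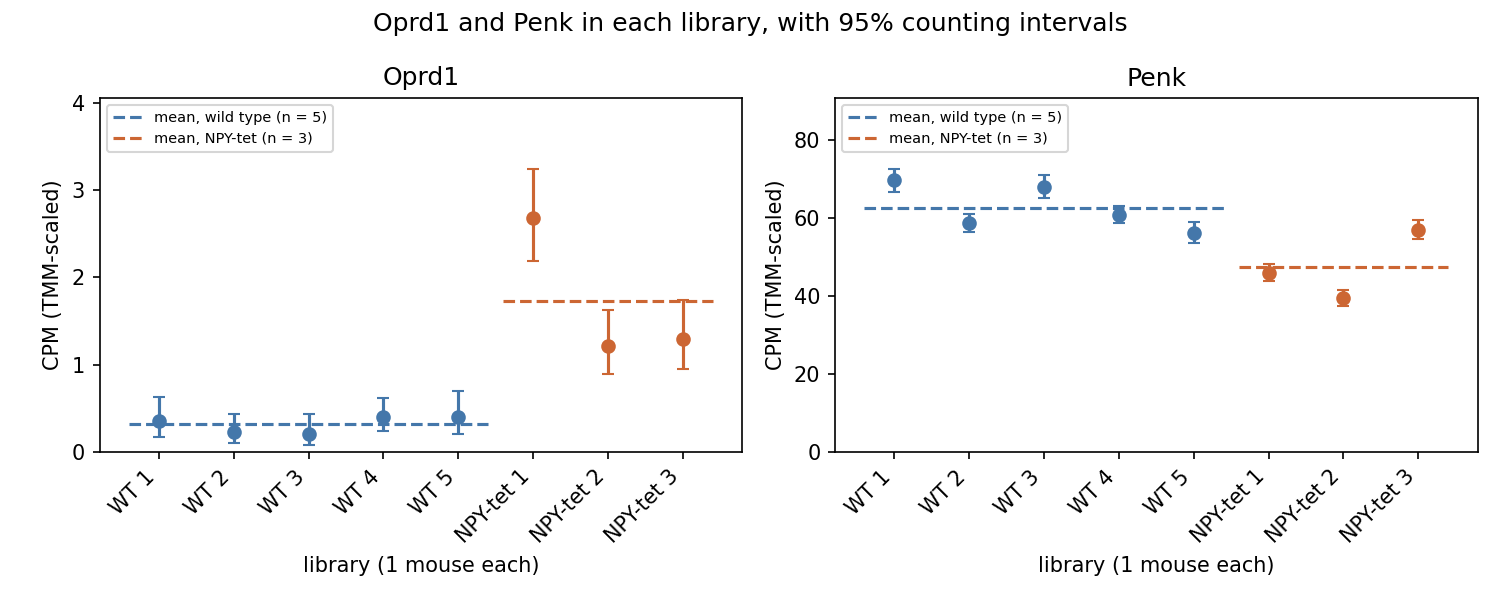
TMM-scaled CPM of Oprd1 (left) and Penk (right) in each of the 8 libraries, with 95% counting intervals as bars and group means as dashed lines. The 3 NPY-tet libraries lie at 1.22 to 2.68 CPM of Oprd1, above all wild-type libraries, and at 39.5 to 57.0 CPM of Penk, where NPY-tet replicate 3 reaches into the wild-type range.

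Wild-type replicate 5 had the highest hair shaft sum of all libraries (766 CPM) and an Oprd1 level of 0.401 CPM. This was close to the 0.400 CPM of wild-type replicate 4, with a hair shaft sum of 4.12 CPM. By contrast, wild-type replicates 2 and 3 had low hair shaft sums (1.70 and 4.36 CPM) and the lowest Oprd1 levels, 0.228 and 0.201 CPM. Wild-type replicate 1 lay between these and replicate 5 in both, with 0.349 CPM of Oprd1. Among NPY-tet mice the highest Oprd1 level went with the middle hair shaft sum (182 CPM). With the hair shaft score as a covariate the log2 fold change of Oprd1 was 2.24, and the part of hair content in the Oprd1 values was not tested. Schwann cell markers stood lowest in NPY-tet replicate 1 (272 CPM), where Oprd1 was highest, and their part in the result was not tested.

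**Figure D3:**
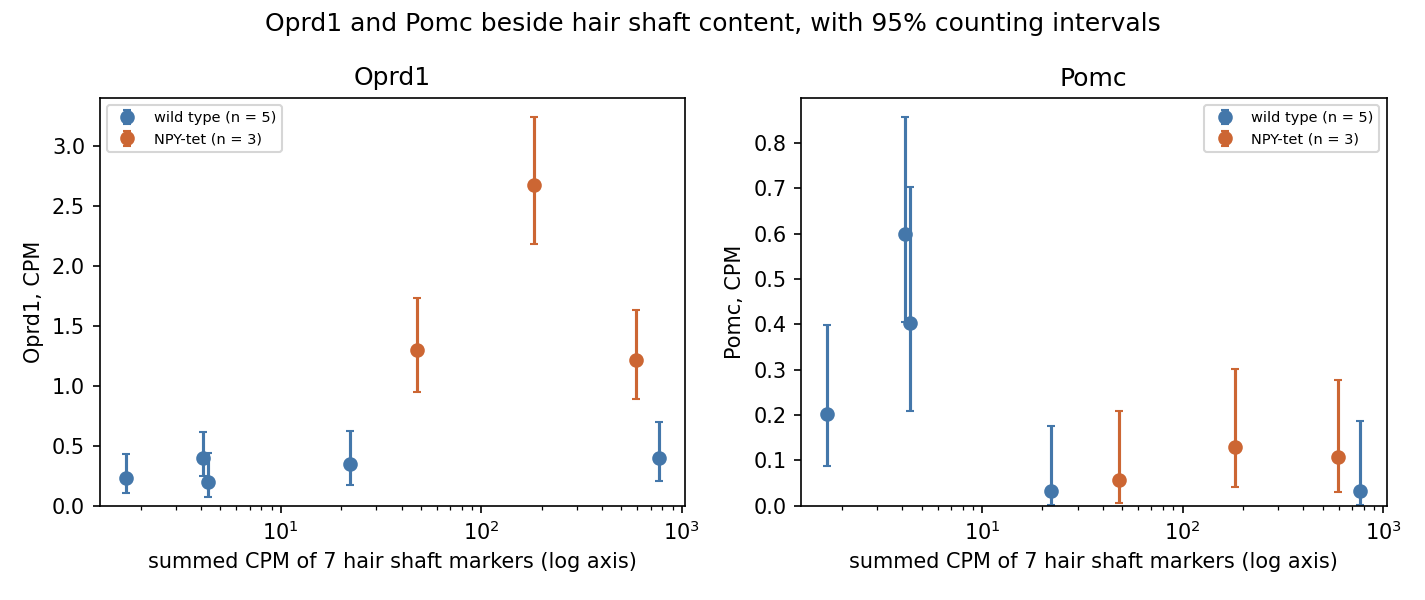
CPM of Oprd1 (left) and Pomc (right) with 95% counting intervals, against the summed CPM of 7 hair shaft markers on a log axis, 1 point per library. The wild-type library at 766 CPM of hair shaft markers has 0.401 CPM of Oprd1, and the 3 wild-type libraries under 5 CPM of hair shaft markers have the highest Pomc.

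No gene of the table overlaps the span of Oprd1. Of 53 genes within 500 kb, 25 were tested, 16 with higher and 9 with lower fitted values in NPY-tet skin, a median log2 fold change of 0.033 and a range of -0.56 to 1.19. By edgeR 0 of the 25 passed an adjusted p of 0.05, beside 0.00541% of all tested genes. Every NPY-tet library was above every wild-type library for 2 of the 25, Tmem200b and Gm12992 (log2 fold changes of 0.53, SE 0.21, and 1.05, SE 0.58), beside 1.81% of all tested genes. The nearest protein-coding neighbours were Ythdf2, a reader of methylated RNA, at 42.4 ± 3.11 CPM in the wild type and 41.8 ± 3.25 CPM in the NPY-tet mice, and the membrane skeleton gene Epb41, at 105 ± 11.8 and 108 ± 5.55 CPM. The nearest row downstream is Gm37711, a gene model of unproven coding status on the same strand that begins 1362 bases past the end of Oprd1. It had 0, 0, 0, 11 and 6 counts in the wild type and 30, 20 and 3 counts in the NPY-tet mice, and its groups overlap. Its mean CPM in the NPY-tet mice was 5.55 times that in the wild type, a ratio as large as that of Oprd1, and it was below the filter and not tested.

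**Figure D4:**
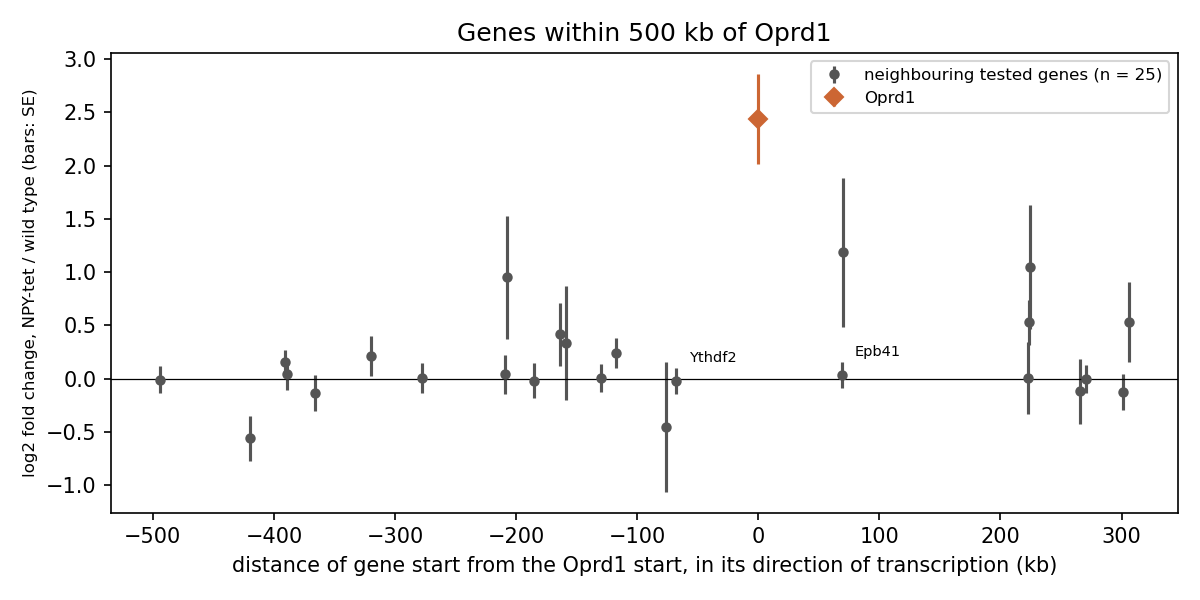
Log2 fold change of NPY-tet over wild type with its SE for Oprd1 (orange) and the 25 tested genes within 500 kb (grey), by distance of gene start from the Oprd1 start in kb. Oprd1 stands at 2.44 and its neighbours between -0.56 and 1.19. Oprd1 was picked for its difference, so its bar is not to be read as a test.

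Likeness to Oprd1 was searched over 13666 genes that averaged 1 CPM or more. Pseudogenes and rows with predicted (Gm), Rik, clone or identifier names were left out of the search. Over the 8 libraries, the log2 CPM of Mfsd14a, a membrane transporter, followed Oprd1 most closely (Pearson r = 0.96, Spearman rho = 0.98). Next came Rdh10, a retinol dehydrogenase (0.95 and 0.81), and Serpina3j, a serine protease inhibitor (0.95 and 0.83). These are the highest of many correlations, share the same libraries and the split by genotype, and are a description only. Mfsd14a ran from 20.1 to 21.8 CPM in the wild type and from 22.9 to 25.6 CPM in the NPY-tet mice. Rdh10 ran from 10.3 to 12.5 and from 14.4 to 17.1 CPM, and Serpina3j from 25.4 to 33.2 and from 62.1 to 146 CPM.

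The other receptor genes were at the limit of detection. Oprl1, the nociceptin receptor gene, had 3, 15, 0, 3 and 1 counts in the wild type and 0, 0 and 1 counts in the NPY-tet mice. Most of its counts came from wild-type replicate 2 (0.380 CPM). Over the group, NPY-tet stood at 0.0744 times the wild-type level (95% counting interval 0.00180 to 0.460), and without wild-type replicate 2 at 0.183 times (0.00406 to 1.42). Both intervals are of counts pooled over mice and leave out the spread between mice. Oprk1, the kappa receptor gene, had 3 counts in wild-type replicate 2, 2 in wild-type replicate 4 and 0 in the other 6 libraries. Oprm1, the mu receptor gene and main target of morphine, had 1 count, in NPY-tet replicate 3. For a count of 0 over a group, the 95% counting interval reaches 0.0204 CPM over the wild-type and 0.0334 CPM over the NPY-tet libraries. Oprm1 shares 152403 bases of its span with Ipcef1 on the opposite strand, and the libraries do not keep strand.

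Oprd1 thus accounted for 58 of 85 receptor counts in wild-type libraries together (68.2%, exact 95% interval 57.2% to 77.9%) and for 194 of 196 in NPY-tet libraries (99.0%, 96.4% to 99.9%). By library its share was 33.3% to 100% in the wild-type mice, lowest in replicate 2, and 95.7% to 100% in the NPY-tet mice. The intervals are of counts pooled over mice, cover counting error only and leave out the spread between mice. These shares contain the difference for which Oprd1 was picked.

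Penk, the enkephalin precursor gene on chromosome 4 at 4133531 to 4138819, minus strand, was expressed in every library. Its counts were 2198, 2319, 2032, 3044 and 1681 in the wild type and 1786, 1458 and 1978 in the NPY-tet mice. As CPM these were 69.7, 58.7, 68.1, 60.9 and 56.2 in the wild type and 46.0, 39.5 and 57.0 in the NPY-tet mice. NPY-tet replicates 1 and 2 lay below all wild-type mice, and replicate 3 lay just above the lowest of them. The means were 62.7 ± 5.91 CPM (SD, n = 5) and 47.5 ± 8.86 CPM (SD, n = 3). The log2 fold change of -0.40 (SE 0.14) did not pass the quasi-likelihood test of edgeR over all genes (adjusted p = 0.781, unadjusted p = 0.0165). At an unadjusted p under 0.05, 3.55% of all tested genes were lower and 2.43% higher in NPY-tet skin. By DESeq2 the adjusted p was 0.509, and over all alternatives it ranged from 0.158 to 1.00. Within the libraries rich in ribosomal RNA the log2 ratio was -0.46 (1 NPY-tet and 4 wild-type mice). Within those poor in it, the ratio was -0.33 (2 NPY-tet mice and 1 wild-type mouse). Without NPY-tet replicate 2, the lowest library, the log2 fold change was -0.28. With the hair shaft score as a covariate it was -0.31. Dermal fibroblast markers ranged from 7791 to 18942 CPM in the wild type and from 2175 to 19909 CPM in the NPY-tet mice, and their part in the Penk values was not tested. Penk shares 499 bases with the lncRNA A830012C17Rik on the opposite strand, which had 3 to 14 counts per library.

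The coefficient of variation of Penk CPM was 9.43% in the wild type and 18.6% in the NPY-tet mice. Penk supplied at least 99.0% of precursor counts in each library. Among the genes that followed it most closely over the 8 libraries were Asb1, a subunit of ubiquitin ligases (Pearson r = 0.98, Spearman rho = 0.95), and Kcnn4, a calcium-activated potassium channel (0.96 and 0.98). Asb1 ran from 19.7 to 26.3 CPM in the wild type and from 13.8 to 20.4 CPM in the NPY-tet mice.

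Pomc, the precursor of beta-endorphin, corticotropin and melanocortins, had 1, 8, 12, 30 and 1 counts in the wild type and 5, 4 and 2 counts in the NPY-tet mice and did not pass the filter on low counts. As CPM it ran from 0.0317 to 0.600 in wild-type, with a median of 0.203, and from 0.0577 to 0.129 in the NPY-tet mice, so the groups overlap. Over the group, NPY-tet stood at 0.346 times the wild-type level (95% counting interval 0.163 to 0.672), and without wild-type replicate 4 at 0.592 times (0.259 to 1.27). Both intervals are of counts pooled over mice and leave out the spread between mice. The libraries with most Pomc were wild-type replicates 4, 3 and 2. They also had the lowest hair shaft sums, 4.12, 4.36 and 1.70 CPM. The part of hair content in the Pomc values was not tested. Pdyn, the dynorphin precursor gene, had 0 counts in all 8 libraries.

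Oprd1 and Penk passed the filter on low counts, while 5 of the 7 members lay below it. Over all genes 0.00541% passed an adjusted p of 0.05, which is 1 gene, Npy. Of the members other than Oprd1, 0 passed by edgeR, and 0 passed by DESeq2, by limma-voom or by limma on FPKM. These counts cover 1 member in edgeR and limma-voom, 2 in limma on FPKM and 5 in DESeq2. The 5 in DESeq2 are members with a fold change, and an adjusted p may be missing for those with few counts. DESeq2 called 64 of the 32480 genes to which it gave a fold change. The 5 members below the filter had at most 30 counts in a library.

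The rest of the pathway was taken from 6 lists by role, 62 genes in all, of which 47 passed the filter. By edgeR 0 of the 47 passed over all genes, and 0 passed by DESeq2, limma-voom or limma on FPKM. At an unadjusted p under 0.05 there were 2, Rgs19 and Gnai1, beside 5.98% of all tested genes. Fitted values were higher in NPY-tet skin for 15 and lower for 32, with a median log2 fold change of -0.11 beside 0.0041 over all tested genes. With library totals in place of TMM the median of all genes moved to 0.17, and the medians of the processing, melanocortin, corticotropin-releasing and Gi/o lists turned to 0.075, 0.015, 0.071 and 0.085.

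Among the remaining opioid genes, Pnoc, the nociceptin precursor gene, had 2, 2, 0, 0 and 3 counts in the wild type and 2, 0 and 0 in the NPY-tet mice. Ogfr, which encodes a receptor for Met-enkephalin, stood at 54.1 ± 6.61 and 45.3 ± 3.70 CPM (log2 fold change -0.26, SE 0.13). Ackr3, a scavenger receptor for chemokines that also takes up opioid peptides, stood at 66.7 ± 11.9 and 51.8 ± 18.6 CPM (-0.36, SE 0.22). The groups overlap for both.

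Enzymes that release peptides from precursors gave 7 tested genes of 9, with 2 higher and 5 lower fitted values (median -0.088). The convertase genes of neuroendocrine cells were scarce. Pcsk2 stood at 0.375 ± 0.231 CPM in the wild type and 0.179 ± 0.135 CPM in the NPY-tet mice, and Pcsk1n, the gene of a convertase inhibitor, at 0.296 ± 0.181 and 0.191 ± 0.0988 CPM. Pcsk1, the main convertase of the Pomc precursor, had 0 to 12 counts per library and was not tested. Widely expressed enzymes were plentiful, with Furin at 119 ± 12.1 and 117 ± 15.9 CPM, the carboxypeptidase gene Cpe at 168 ± 10.6 and 172 ± 26.2 CPM and the cathepsin gene Ctsl at 271 ± 47.4 and 302 ± 63.1 CPM.

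Peptidases that break down enkephalins gave 7 tested genes of 8, with 2 higher and 5 lower fitted values (median -0.21). Mme, which encodes neprilysin, stood at 27.0 ± 4.08 CPM in the wild type and 21.1 ± 6.10 CPM in the NPY-tet mice (log2 fold change -0.36, SE 0.19), and the aminopeptidase N gene Anpep at 109 ± 20.0 and 90.9 ± 7.06 CPM (-0.27, SE 0.15). The groups overlap for both.

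The melanocortin arm, receptors and accessory proteins for the other Pomc products, gave 6 tested genes of 10 (median -0.15), with 2 higher and 4 lower fitted values. Mc2r, the corticotropin receptor gene, ranged from 1.81 to 4.92 CPM in the wild type and from 1.96 to 2.36 CPM in the NPY-tet mice. Mrap, whose protein carries that receptor to the cell surface, stood at 27.3 ± 4.42 and 17.7 ± 12.1 CPM (log2 fold change -0.63, SE 0.36). Mrap passed in 1 setting, without NPY-tet replicate 3, with a log2 fold change of -1.34 and an adjusted p of 0.0488 by edgeR. White adipocyte markers, a cell type that expresses Mrap, summed to 3441 to 6193 CPM in the wild type and 2161 to 4950 CPM in the NPY-tet mice, and their part in the values was not tested. Mc1r, the melanocortin receptor of pigment cells, had 38 counts in wild-type replicate 5, 20 in NPY-tet replicate 2 and at most 2 elsewhere. These 2 libraries also had the highest sums of melanocyte markers, 115 and 105 CPM, against 18.8 to 41.9 CPM in the rest. Their hair shaft sums, 766 and 594 CPM, were the highest as well. The parts of pigment cells and of hair content in the Mc1r values were not tested.

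The corticotropin-releasing arm, upstream of Pomc in the pituitary, gave 4 tested genes of 7 (median -0.10), with 1 higher and 3 lower fitted values. The receptor genes Crhr1 and Crhr2 stood at 0.200 ± 0.430 and 0.388 ± 0.312 CPM and at 21.0 ± 5.82 and 18.9 ± 5.31 CPM. Crhr1 counts came almost wholly from NPY-tet replicates 1 and 2 (23 and 20) and from wild-type replicate 5 (29), the libraries with the highest hair shaft sums, and the part of hair content was not tested. Crh itself had 6 counts in wild-type replicate 2, 5 in NPY-tet replicate 1 and 0 elsewhere.

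The list of Gi/o proteins, adenylyl cyclases, channels and proteins that end receptor signals gave 21 tested genes of 25, with 8 higher and 13 lower fitted values (median -0.077). Rgs19, an accelerator of Gi inactivation, stood at 16.8, 16.8, 17.8, 20.1 and 16.4 CPM in the wild type and at 12.0, 14.1 and 14.9 CPM in the NPY-tet mice. Every NPY-tet library was below every wild-type library, as for 1.98% of tested genes, and the log2 fold change of -0.36 (SE 0.14) did not pass (edgeR adjusted p = 0.793). Gnai1, a Gi alpha subunit gene, stood at 142 ± 19.8 and 107 ± 24.9 CPM (-0.41, SE 0.17; edgeR adjusted p = 0.795), with NPY-tet replicate 3 inside the wild-type range. Gprasp1, whose protein sorts delta receptors to lysosomes, ranged from 13.1 to 17.9 CPM in the wild type and from 13.7 to 18.8 CPM in the NPY-tet mice. The beta-arrestin gene Arrb2 stood at 21.1 ± 2.24 and 18.8 ± 1.82 CPM, and both genes' groups overlap.

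**Figure D5:**
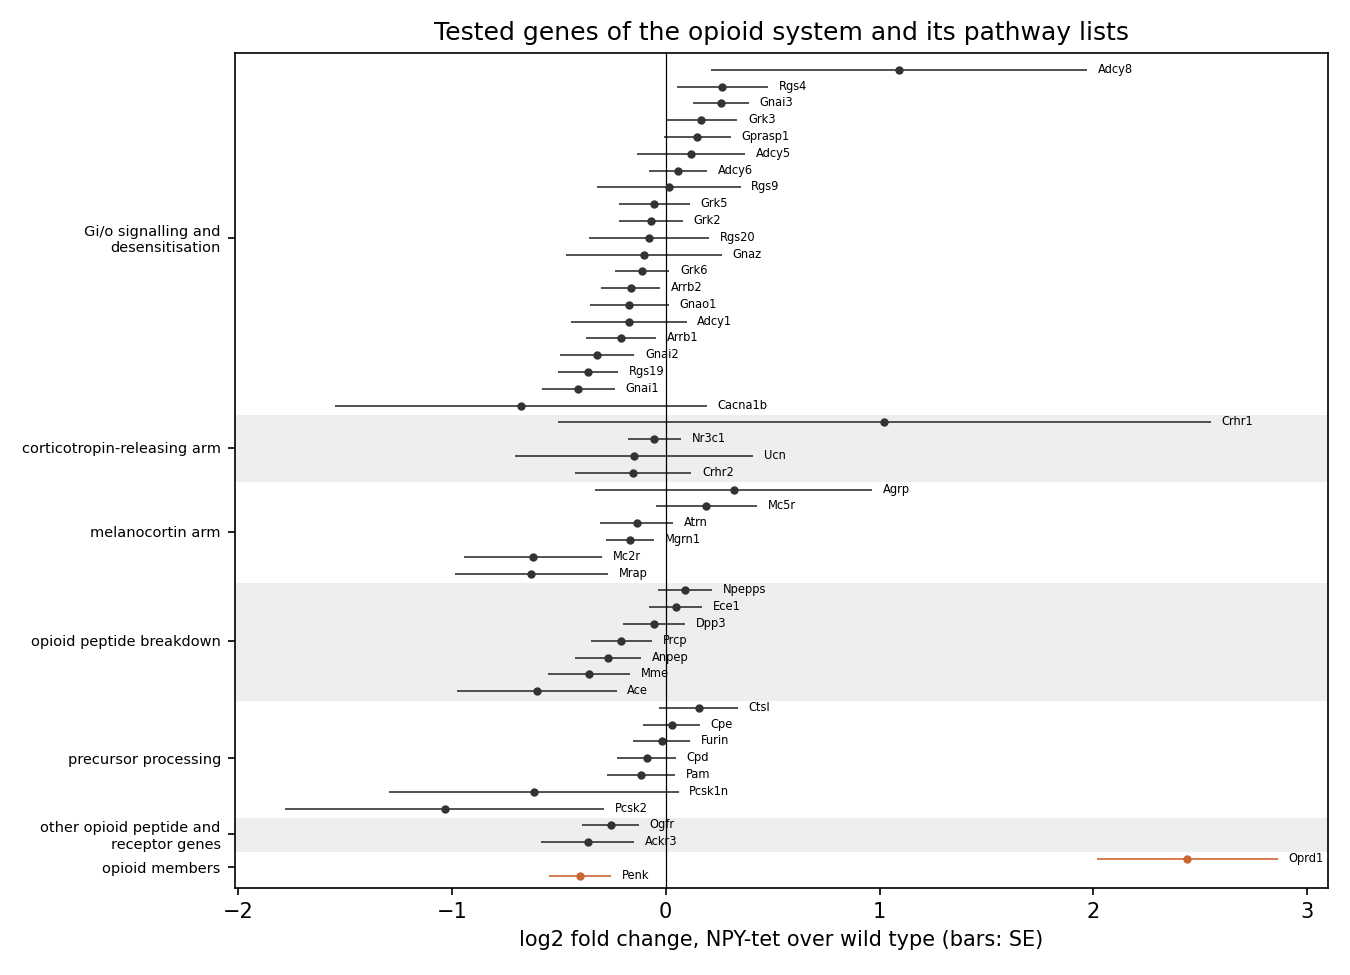
Log2 fold change of NPY-tet over wild type (x axis) with its SE as bars for the 2 tested members (orange) and the 47 tested genes of the 6 pathway lists (black), grouped by list. Oprd1 lies at 2.44, and the pathway genes between -1.03 and 1.09, 15 above and 32 below 0. The bar of Oprd1, a gene picked for its difference, is not to be read as a test.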

How the data were processed

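RNA of whole skin from 5 wild-type and 3 NPY-tet mice was selected with poly-T beads and made into non-directional libraries, per the labels' protocols. Deposited counts are whole and unnormalized, with 1 row for each Ensembl gene. The deposited FPKM equal, from their values, the counts divided by listed gene length and by a library size other than the column total. HISAT2 2.0.5, featureCounts 1.5.0-p3, DESeq2 1.20.0, CASAVA and mm39 are named per the submitters' processing notes, with no role for each. Filters and the annotation release are not given in the sources used here. Columns were joined to mice by their names. The descriptions of 6 samples name the next mouse number, though of the same genotype, so which mouse a replicate number denotes is uncertain.

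Counts were compared with edgeR 4.0.16 in R 4.3.3: filterByExpr, TMM factors, quasi-likelihood tests of genotype alone from a robust fit, and Benjamini-Hochberg adjustment over 18495 genes with a threshold of 0.05. A standard error is the log2 fold change over the square root of F. Alternatives used other size factors, other filters, DESeq2 1.42.0, limma 3.58.1 (voom, and log2 FPKM with pseudocounts of 0.1 and 1), covariates, the replicate number as a block and each library left out.

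The 7 members, the pathway lists and the marker lists were chosen with earlier results of these data known. Named genes are the members, the 2 tested genes of each list with the smallest p, the 3 most similar genes for Oprd1 and Penk, the neighbours of Oprd1 and Npy. Of the genes most similar to Penk, 1 is not reported here. Other pathway genes with values (Pnoc, Pcsk1, Furin, Cpe, Ctsl, Mc1r, Crh, Gprasp1 and Arrb2) were chosen after their values were seen. Cores and motifs were searched by exact match.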

Additional observations from a re-analysis of the deposited data

Results flagged for a closer look

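A single wild-type library stood far from the other wild-type libraries for 3 of the 17 genes so examined. The cutoff is met by chance in about 1 in 20 groups, a rate that holds for normally spread values. Oprl1 and Crhr1 had few or no counts in most wild-type libraries, where that rate does not hold. Nothing is therefore read from the number of genes flagged. Oprl1 was highest in wild-type replicate 2, at 0.380 CPM, with 0 to 0.0951 CPM in the other 4. Crhr1 was highest in wild-type replicate 5, at 0.970 CPM from 29 counts, against 0 or 1 count in the other wild-type mice, and it had 23, 20 and 1 counts in NPY-tet mice. Crhr2 was lowest in wild-type replicate 4, at 10.9 CPM.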

How the results depend on the processing

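Of the members other than Oprd1, 0 passed under any of the 21 alternatives, and Penk stayed lower in NPY-tet skin under all of them, with a log2 fold change of -0.55 to -0.28 with 1 library left out and -0.51 to -0.24 otherwise. That of Oprd1 was 1.98 to 2.64 with 1 library left out. It moved to 1.51 and 0.39 on the log2(FPKM + 0.1) and log2(FPKM + 1) scales, whose pseudocounts are near or above its level. Leaving out 1 library could not turn the sign for Oprd1, since every NPY-tet library lay above every wild-type library. The difference in mean CPM between NPY-tet and wild-type mice ran from -0.21 to -0.069 for Pomc and from -0.13 to -0.038 for Oprl1 with 1 library left out. The melanocortin list had 0 to 1 genes past the threshold with 1 library left out (Mrap), and the other 5 lists 0 throughout. Of the 12 genes named from the lists, 11 kept their direction in every fit that gave a value. Crhr2 turned to 0.033 with library totals, 0.0018 with a ribosomal RNA covariate and 0.071 without NPY-tet replicate 1 (-0.31 to 0.071 with 1 library left out), and the cause was not tested. Same-numbered mice did not deviate together throughout (correlations of -0.044, -0.11 and 0.30, with 1 of 3 NPY-tet libraries closest to its own number). With so few mice this check cannot exclude a pairing, and the main fit used none. With the replicate block Penk stood at -0.48 and Oprd1 at 2.67, and 2 genes passed in place of 1. Without the low-count filter 21 passed. DESeq2 called 64, limma-voom 3, limma on FPKM 2, the ribosomal RNA covariate 11, library totals 2, and the fit without NPY-tet replicate 3 called 8. Depth limits Oprm1, Oprk1, Oprl1, Pdyn and Pomc, whose values rest on 0 to 30 counts per library.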
